A study of Mus musculus with 16 samples.

Results

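The genes described here are 10 that govern the growth of blood and lymphatic vessels: the ligands Vegfa and Vegfc, their receptors Kdr, Flt1 and Flt4, the angiopoietins Angpt1 and Angpt2, the receptors Tek and Tie1, and the transcription factor Prox1. They were taken by symbol, all 10 were found among the 26357 genes of the count table, and all 10 passed the filter on low counts that left 14671 genes for testing. The rule itself goes by symbol and uses no measured value, but the 10 genes were chosen with earlier results of these data known. Their counts of calls are therefore a description. The series holds 16 RNA-seq libraries from mice, 4 in each of 4 groups. Mice received IL-23 with an oral drug vehicle, IL-23 with an intraperitoneal drug vehicle, vehicle in place of IL-23 with the oral drug vehicle, or vehicle with the intraperitoneal drug vehicle. Every group received 0 mpk of compound. IL-23 is a cytokine that sustains IL-17-producing T cells, and the title of the study concerns a psoriasis-like dermatitis that it drives in mice. The labels give neither tissue, strain, sex, age nor day of harvest, and nothing in them says which libraries came from separate mice, so a p-value here measures no more than the spread between libraries.

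VEGF ligands bind receptor tyrosine kinases on endothelial cells. Vegfa acts through Kdr and Flt1 and drives the sprouting of blood vessels, whereas Vegfc acts mainly through Flt4 and drives the growth of lymphatic vessels. Angpt1, made largely by cells around the vessel, activates Tek and stabilises the vessel wall. Angpt2, released by endothelial cells, can oppose Angpt1 at Tek, and Tie1 is a partner of Tek with no well-defined ligand of its own. Prox1 is the transcription factor that gives lymphatic endothelial cells their identity. In psoriatic skin, widened and tortuous dermal capillaries are a known feature and keratinocytes are a known source of VEGF-A.

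Totals were 6381990 to 10078531 counts in IL-23 libraries and 7159325 to 14432930 counts in vehicle libraries. Levels are given as CPM, each gene's count scaled by TMM to a common library size, and differences as log2 fold changes of IL-23 over vehicle from edgeR's quasi-likelihood fit with their standard errors (SE). A gene was called when its Benjamini-Hochberg adjusted p over all 14671 genes was below 0.05. Most genes tested differed with IL-23: 63.3% were called with oral dosing, 61.7% with intraperitoneal dosing and 73.6% over both. Libraries 28 and 51 stood apart in markers that bear on vessels. Intraperitoneal IL-23 library 28 had the highest pan-endothelial marker sum of the 8 IL-23 libraries, at 495 CPM, and also 1570 CPM of macrophage and monocyte markers, where the other IL-23 libraries had at most 453 CPM, and 5141 CPM of fibroblast markers. Oral vehicle library 51 had the highest pan-endothelial sum of all libraries, at 612 CPM, and the lowest keratinocyte marker sum, at 21450 CPM. Values of the 10 genes without either library are given where a call or a value depends on it.

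With oral dosing, 7 of the 10 vessel growth genes were lower in IL-23 than in vehicle libraries (edgeR, adjusted p below 0.05) and none was higher, in a comparison in which 34% of all genes tested were called lower and 29.2% higher. The 7 were Vegfc, Kdr, Flt1, Angpt1, Angpt2, Tek and Prox1. With intraperitoneal dosing, Angpt1 and Prox1 were called lower, 2 of 10, against 30.9% of all genes lower and 30.8% higher. Taken as the mean of both routes, with 8 libraries on each side, 8 of 10 were lower, against 38.7% of all genes lower and 34.9% higher, and the genes that did not pass were Vegfa and Flt1. The median log2 fold change of the 10 genes was -0.88 with oral dosing, -0.38 with intraperitoneal dosing and -0.60 over both, where the median of all genes tested was -0.06, -0.02 and -0.04. These counts rest on library sizes scaled by TMM. Relative to 17 pan-endothelial markers, Vegfa was the only one of the 10 called with oral dosing, and it was higher, whereas over both routes Vegfa was higher and Prox1 lower. On that scale most genes move up: 59.2% of all genes tested were called higher and 5.43% lower with oral dosing, 40.2% and 9.3% with intraperitoneal dosing, and 60.0% and 10.9% over both. In these bulk samples fewer cells of a type and less RNA per cell cannot be told apart.

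**Figure D1:**
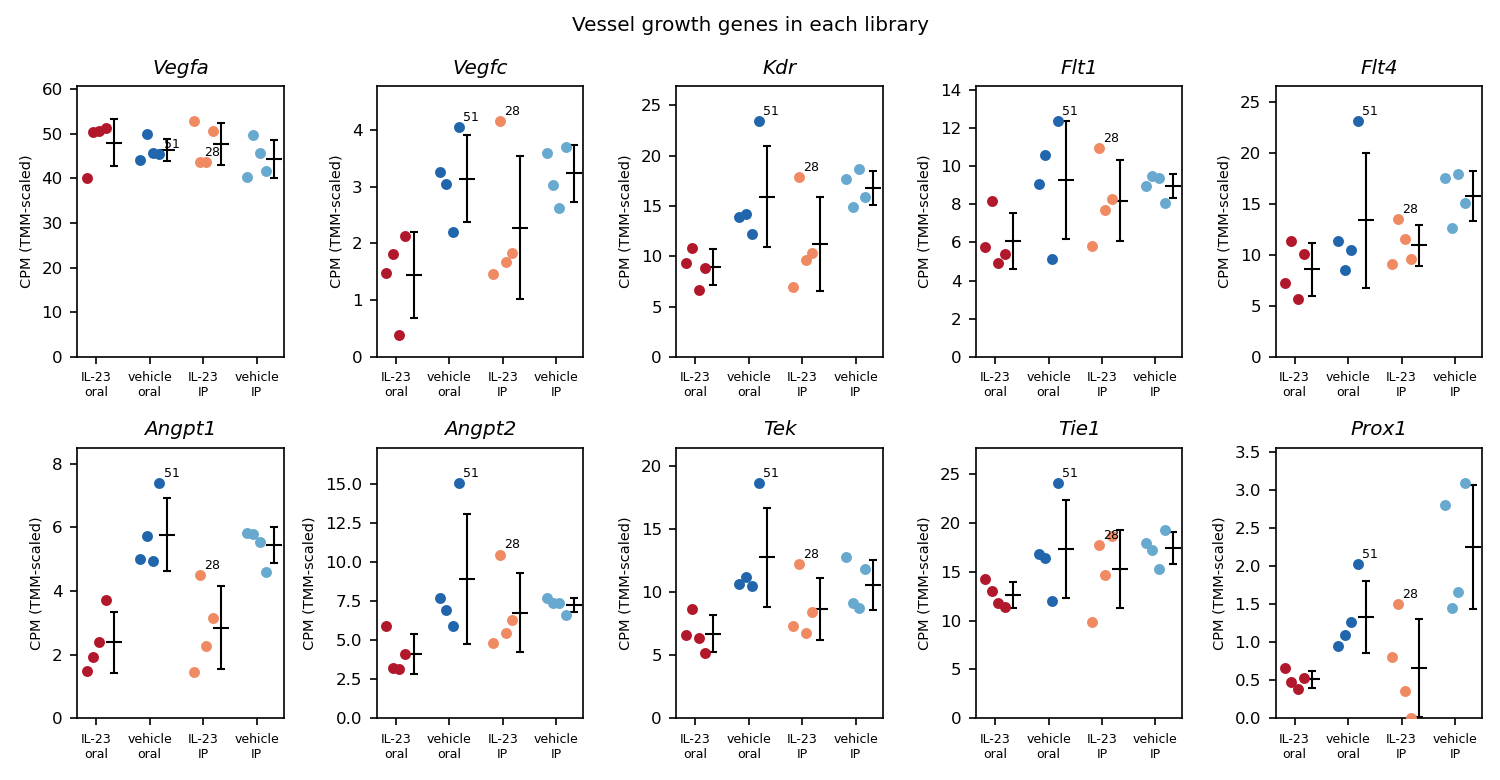
CPM of each vessel growth gene (vertical axis, from 0) in the 4 libraries of each group, with the mean and SD as a black bar beside the points and libraries 28 and 51 numbered. Vegfa overlaps between IL-23 and vehicle in both routes, whereas the 8 IL-23 values of Angpt1 all lie below the 8 vehicle values.

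The 250 bases before the annotated start are shown for Vegfa, which was not called, and for Tie1, Flt4 and Prox1, which were lower over both routes, so that the upstream letters of a gene without a call can be read beside those of the endothelial genes. ETS factors, a family that includes regulators of endothelial genes, bind a core GGAA. In each line below the capitals mark that core on either strand (GGAA or TTCC), and the letters run 5′ to 3′ on the gene's own strand, from RefSeq windows on GRCm38.p6.
Vegfa, chr17:46032378-46032627, minus strand: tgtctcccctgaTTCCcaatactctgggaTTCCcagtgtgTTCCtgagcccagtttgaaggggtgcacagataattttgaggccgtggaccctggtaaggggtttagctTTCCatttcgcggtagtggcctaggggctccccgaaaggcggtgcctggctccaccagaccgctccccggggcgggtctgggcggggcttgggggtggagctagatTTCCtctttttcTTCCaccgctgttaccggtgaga
Tie1, chr4:118489850-118490099, minus strand: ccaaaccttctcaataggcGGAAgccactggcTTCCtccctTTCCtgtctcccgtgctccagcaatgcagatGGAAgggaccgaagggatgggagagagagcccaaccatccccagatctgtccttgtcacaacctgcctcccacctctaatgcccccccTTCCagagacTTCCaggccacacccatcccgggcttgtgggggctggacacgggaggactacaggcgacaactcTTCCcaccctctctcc
Flt4, chr11:49609429-49609678, plus strand: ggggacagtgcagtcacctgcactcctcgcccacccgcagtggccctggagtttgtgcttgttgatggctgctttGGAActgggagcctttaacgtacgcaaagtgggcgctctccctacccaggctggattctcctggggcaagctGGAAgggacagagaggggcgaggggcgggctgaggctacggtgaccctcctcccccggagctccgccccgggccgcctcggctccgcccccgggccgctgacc
Prox1, chr1:190170828-190171077, minus strand: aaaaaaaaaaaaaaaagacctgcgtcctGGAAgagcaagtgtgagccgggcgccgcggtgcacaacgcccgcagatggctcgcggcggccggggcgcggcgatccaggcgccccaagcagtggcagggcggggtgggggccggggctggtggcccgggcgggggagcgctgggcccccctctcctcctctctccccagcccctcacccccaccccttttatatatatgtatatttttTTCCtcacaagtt
The core was found 6 times in the Vegfa window, 7 times in that of Tie1, and 2 times each in those of Flt4 and Prox1. Such windows were held for 8 of the 10 genes. In those not shown the core was found 4 times for Kdr, 4 times for Flt1, 2 times for Tek and 1 time for Vegfc. The Kdr window (75978456 to 75978705) and the Flt1 window (147726012 to 147726261) lie inside the gene spans given below. The Tek window (94739039 to 94739288) crosses the Tek start given below. The windows of Kdr, Flt1 and Tek are therefore not the bases directly before those starts. Of 32851 windows of the same length, 93.4% hold it at least once, with a median of 3 sites. The hypoxia response core, searched as ACGTG or GCGTG on both strands, stood 2 times in the Kdr window and 1 time in the Flt1 window and in none of the other 6, and 38.6% of all windows hold it. The SOX core ACAAT stood 2 times in the Tek window alone, against 27.7% of all windows. No AP-1 motif (TGANTCA, 6.75% of all windows) and no STAT motif (TTCNNNGAA, 7.02%) was present in the 8 windows. A match of letters describes the window and is not a site shown to be bound.

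Vegfa, the ligand of Kdr and Flt1, lies on chromosome 17 (46016993 to 46032377, minus strand, GRCm38.p6). It had 40.0, 50.3, 50.6 and 51.3 CPM in oral IL-23 libraries, against 44.2, 49.9, 45.7 and 45.5 CPM in oral vehicle libraries. In intraperitoneal IL-23 libraries it had 52.8, 43.7, 43.7 and 50.5 CPM, against 40.3, 49.8, 45.6 and 41.7 CPM in intraperitoneal vehicle libraries. The groups overlapped in both routes. The difference was 0.06 (SE 0.10, adjusted p = 0.609) with oral dosing and 0.10 (SE 0.10, adjusted p = 0.359) with intraperitoneal dosing. Over both routes the 95% interval of the log2 difference, -0.07 to 0.23, holds no change of more than 0.23 in either direction. Under plain library sizes, which shift the median of all genes by about -0.20, the sign turned, with -0.14, -0.11 and -0.13 for oral, intraperitoneal and both.

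Vegfc, the lymphatic growth factor, lies on chromosome 8 (54077532 to 54186454, plus strand). It had 1.48, 1.81, 0.380 and 2.12 CPM in oral IL-23 libraries, against 3.26, 3.04, 2.20 and 4.05 CPM in oral vehicle libraries. Every oral IL-23 value lay below every oral vehicle value, and Vegfc fell by 1.08 on the log2 scale (SE 0.39, adjusted p = 0.0229), or by 52.7%. With intraperitoneal dosing Vegfc had 1.46, 4.15, 1.66 and 1.82 CPM in IL-23 libraries, against 3.59, 3.03, 2.62 and 3.70 CPM in vehicle libraries. Library 28 alone, at 4.15 CPM, reached the vehicle range. The intraperitoneal difference was -0.48 (SE 0.37, adjusted p = 0.274) with that library and -0.95 (SE 0.37, adjusted p = 0.0312) without it. The oral call was lost without oral IL-23 library 26, in which 3 counts were read, and without vehicle library 51 (log2 fold change -0.91, adjusted p = 0.0722). Over both routes Vegfc fell by 0.78 (SE 0.27, adjusted p = 0.0151).

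Kdr encodes the main signalling receptor of Vegfa on blood vessels and lies on chromosome 5 (75932827 to 75979072, minus strand). It had 9.35, 10.9, 6.59 and 8.82 CPM in oral IL-23 libraries, against 13.9, 14.2, 12.2 and 23.4 CPM in oral vehicle libraries. It fell by 0.83 (SE 0.25, adjusted p = 0.00838) with no overlap of the groups. With intraperitoneal dosing Kdr had 6.96, 17.9, 9.62 and 10.3 CPM with IL-23, against 17.6, 14.9, 18.6 and 15.9 CPM with vehicle, and library 28 was again the one IL-23 library in the vehicle range. The intraperitoneal difference was -0.57 (SE 0.25, adjusted p = 0.0537), just outside the threshold, and -0.89 (SE 0.22, adjusted p = 0.0022) without library 28. Without vehicle library 51 the oral difference was -0.57 (SE 0.24, adjusted p = 0.0525), and the intraperitoneal one passed (-0.57, SE 0.22, adjusted p = 0.0342). Over both routes Kdr fell by 0.70 (SE 0.18, adjusted p = 0.00177), and no omission of a single library ended that call.

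Flt1, a second Vegfa receptor that also acts as a decoy, lies on the same chromosome (147561604 to 147726438, minus strand). It ranged from 4.94 to 8.20 CPM in oral IL-23 libraries, against 5.13 to 12.4 CPM in oral vehicle libraries, and from 5.83 to 10.9 CPM in intraperitoneal IL-23 libraries, against 8.10 to 9.49 CPM in intraperitoneal vehicle libraries. The groups overlapped in both routes. The oral difference of -0.60 (SE 0.25, adjusted p = 0.0448) was the weakest of the 7 oral calls and was lost when any of 12 of the 16 libraries was left out, all but 24, 25, 28 and 33. Without library 51 it was -0.40 (adjusted p = 0.188). The intraperitoneal difference was -0.12 (SE 0.24, adjusted p = 0.684), and that over both routes -0.36 (SE 0.17, adjusted p = 0.0717), which passed without library 24, 28 or 33. The sign of the intraperitoneal value turned, at 0.0091, without IL-23 library 25.

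Flt4, the receptor of Vegfc on lymphatic endothelium, lies on chromosome 11 (49609679 to 49652739, plus strand). It had 7.22, 11.3, 5.70 and 10.1 CPM in oral IL-23 libraries, against 11.4, 8.52, 10.5 and 23.1 CPM in oral vehicle libraries. With intraperitoneal dosing Flt4 had 9.07, 13.5, 11.5 and 9.61 CPM with IL-23, against 17.6, 12.7, 17.9 and 15.1 CPM with vehicle. The groups overlapped in both routes, by library 28 alone in the intraperitoneal one. Neither route passed by itself, with -0.63 (SE 0.28, adjusted p = 0.0567) for oral and -0.53 (SE 0.27, adjusted p = 0.0984) for intraperitoneal dosing, but over both routes Flt4 fell by 0.58 (SE 0.19, adjusted p = 0.0125). Without vehicle library 51 the value over both routes was -0.37 (SE 0.15, adjusted p = 0.0353) and the oral one -0.21 (SE 0.22, adjusted p = 0.423). Single routes passed without library 24, 27 or 33 (oral) and without library 51 (intraperitoneal, -0.53, adjusted p = 0.0319).

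Angpt1, the activating ligand of Tek, showed the clearest fall of the 10. It lies on chromosome 15 (42424667 to 42676977, minus strand). It had 1.48, 1.93, 2.41 and 3.72 CPM in oral IL-23 libraries, against 5.0, 5.72, 4.93 and 7.40 CPM in oral vehicle libraries. With intraperitoneal dosing it had 1.46, 4.49, 2.26 and 3.15 CPM with IL-23, against 5.81, 5.80, 5.55 and 4.6 CPM with vehicle. Every IL-23 value, library 28 included, lay below every vehicle value in each route and over all 16 libraries. This was the case for 31.8% of genes with oral dosing, 25.9% with intraperitoneal dosing and 19.2% over both. Its log2 fold change was -1.23 (SE 0.30, adjusted p = 0.00165) with oral dosing, -0.92 (SE 0.29, adjusted p = 0.0124) with intraperitoneal dosing and -1.07 (SE 0.21, adjusted p = 0.000181) over both, where it fell by 52.5%. None of the 16 omissions of 1 library ended any of these calls. An antisense gene, Gm17473, overlaps exons of Angpt1, and the strand setting of the counting is not given in the sources used here.

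Angpt2, which can oppose Angpt1 and is stored in endothelial cells, lies on chromosome 8 (18690263 to 18741562, minus strand). It had 5.90, 3.26, 3.17 and 4.14 CPM in oral IL-23 libraries, against 7.71, 6.94, 5.93 and 15.1 CPM in oral vehicle libraries. The oral groups did not overlap, narrowly so at library 14, and Angpt2 fell by 1.12 (SE 0.30, adjusted p = 0.00408). Without vehicle library 51 it fell by 0.72 (SE 0.26, adjusted p = 0.0252). With intraperitoneal dosing Angpt2 had 4.86, 10.5, 5.46 and 6.29 CPM with IL-23, against 7.71, 7.38, 7.38 and 6.60 CPM with vehicle. There the difference was -0.09 (SE 0.29, adjusted p = 0.81), and without library 28, the one IL-23 library above 6.60 CPM, it was -0.38 (SE 0.29, adjusted p = 0.271). Left out one at a time, libraries moved the intraperitoneal value between -0.38 and 0.04, and its sign turned without IL-23 library 25 or 31. Over both routes Angpt2 fell by 0.61 (SE 0.21, adjusted p = 0.016), and without library 51 by a value closer to the threshold (-0.40, SE 0.18, adjusted p = 0.0484).

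The count ratio of Angpt2 to Angpt1 was described without a test. It was 4, 1.69, 1.32 and 1.11 in oral IL-23 libraries, against 1.54, 1.21, 1.20 and 2.04 in oral vehicle libraries, which overlap. In intraperitoneal libraries it was 3.33, 2.33, 2.42 and 2 with IL-23, against 1.33, 1.27, 1.33 and 1.43 with vehicle, with no overlap. It averaged 2.03 ± 1.34 in oral IL-23 and 1.5 ± 0.394 in oral vehicle libraries, and 2.52 ± 0.571 in intraperitoneal IL-23 and 1.34 ± 0.0679 in intraperitoneal vehicle libraries (SD, n = 4 each). The oral order of the mean log2 ratios turned without IL-23 library 14, the one with a ratio of 4. That ratio rests on 36 Angpt2 and 9 Angpt1 counts, and the 3.33 of intraperitoneal IL-23 library 25 on 30 and 9 counts.

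Tek, the angiopoietin receptor, and Tie1, its partner, both lie on chromosome 4, Tek at 94739086 to 94874976 on the plus strand and Tie1 at 118471191 to 118489849 on the minus strand. Tek had 6.56, 8.69, 6.34 and 5.2 CPM in oral IL-23 libraries, against 10.6, 11.2, 10.5 and 18.6 CPM in oral vehicle libraries. Its oral groups did not overlap, and its oral log2 fold change was -0.92 (SE 0.24, adjusted p = 0.0027), or -0.66 (SE 0.22, adjusted p = 0.0169) without vehicle library 51. With intraperitoneal dosing Tek had 7.29, 12.2, 6.77 and 8.45 CPM with IL-23, against 12.7, 9.09, 8.73 and 11.8 CPM with vehicle, and the difference was -0.28 (SE 0.23, adjusted p = 0.302), or -0.49 (SE 0.23, adjusted p = 0.0767) without library 28. Over both routes Tek fell by 0.60 (SE 0.17, adjusted p = 0.0035). Tie1 ranged from 11.4 to 14.3 CPM in oral IL-23 libraries, against 12 to 24.1 CPM in oral vehicle libraries, and from 9.88 to 18.7 CPM in intraperitoneal IL-23 libraries, against 15.3 to 19.3 CPM in intraperitoneal vehicle libraries. Tie1 groups overlapped in both routes, with -0.46 (SE 0.20, adjusted p = 0.0557) for oral and -0.19 (SE 0.20, adjusted p = 0.422) for intraperitoneal dosing. Its fall of 0.32 over both routes (SE 0.14, adjusted p = 0.0476) lay just inside the threshold and was lost when any of 11 libraries was left out, all but 14, 28, 33, 59 and 61 (-0.21, adjusted p = 0.153, without library 51). The oral value of Tie1 passed without library 25 or 33.

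Prox1, the lymphatic identity factor, had the lowest level and the largest fold change of the 10, and its counts were few. It lies on chromosome 1 (190118035 to 190170827, minus strand). It had 0.656, 0.483, 0.380 and 0.531 CPM in oral IL-23 libraries, against 0.953, 1.10, 1.27 and 2.03 CPM in oral vehicle libraries, from 16 against 60 counts in all. With intraperitoneal dosing it had 0.810, 1.5, 0.356 and 0 CPM with IL-23, against 2.81, 1.45, 1.67 and 3.10 CPM with vehicle, from 21 against 106 counts. The 0 of IL-23 library 61 allows up to 0.497 CPM at its depth (3 counts, counting error only). The groups did not overlap with oral dosing, and with intraperitoneal dosing they overlapped by library 28 alone. Its log2 fold change was -1.37 (SE 0.55, adjusted p = 0.0377) with oral dosing, -1.68 (SE 0.49, adjusted p = 0.00728) with intraperitoneal dosing and -1.52 (SE 0.37, adjusted p = 0.00129) over both. The oral call was lost when library 24, 26, 33, 51 or 68 was left out (-1.09, adjusted p = 0.117, without library 51), while the intraperitoneal call held in all 16 omissions and was -2.50 (SE 0.54, adjusted p = 0.000712) without library 28. An antisense gene, Prox1os, overlaps exons of Prox1.

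**Figure D2:**
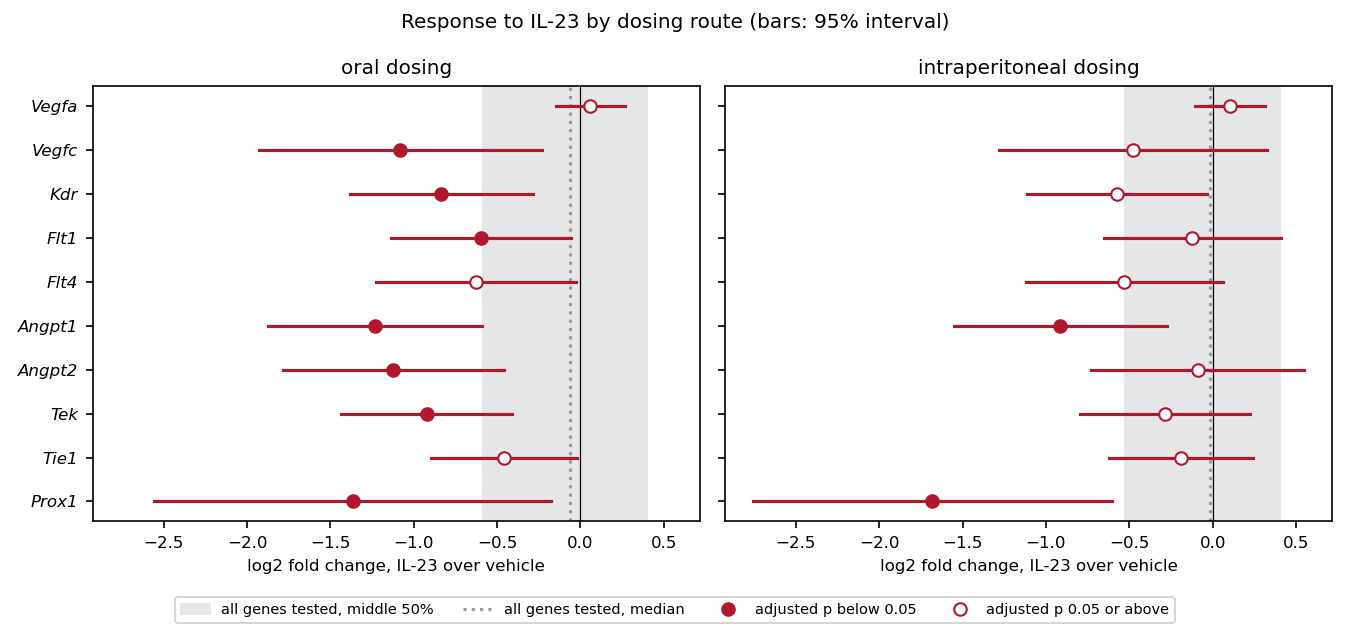
Log2 fold change of IL-23 over vehicle with its 95% interval for each vessel growth gene, by dosing route, with filled points for adjusted p below 0.05 (edgeR). The grey band is the middle 50% of all genes tested and the dotted line their median, and all points but that of Vegfa lie below 0 in both panels.

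The larger number of calls with oral dosing is not a shown difference between routes. In the test of the difference itself (intraperitoneal minus oral effect), none of the 10 genes and 0% of all genes were called by edgeR, whereas 796 genes had an unadjusted p below 0.05, and DESeq2 called 1 gene, not among the 10. Angpt2 had the largest difference among the 10, 1.03 (SE 0.42, unadjusted p = 0.0258, adjusted p = 0.875), and Tek followed with 0.64 (SE 0.33, unadjusted p = 0.0715). Without vehicle library 51 these were 0.64 (SE 0.35) for Angpt2 and 0.38 (SE 0.30) for Tek, and without IL-23 library 28 they were 0.72 (SE 0.40) and 0.40 (SE 0.32). In vehicle mice alone, intraperitoneal against oral dosing, none of the 10 genes and 0% of all genes were called (1087 genes at an unadjusted p below 0.05, and 0 by DESeq2). Prox1 came nearest, with 2.26 ± 0.819 CPM in intraperitoneal and 1.33 ± 0.478 CPM in oral vehicle libraries (SD, n = 4 each) and a log2 difference of 0.78 (SE 0.42, unadjusted p = 0.0828). Without libraries 28 and 51 together, an omission chosen after seeing the data, the routes gave 5 and 6 calls: Vegfc, Kdr, Angpt1, Angpt2 and Tek with oral dosing, and Vegfc, Kdr, Flt4, Angpt1, Tek and Prox1 with intraperitoneal dosing.

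Set per kilobase of annotated exon, the order of levels was the same at its ends in every group. Vegfa was highest, at 11.2 ± 1.25 and 11.1 ± 1.10 CPM per kilobase in oral and intraperitoneal IL-23 libraries, against 10.8 ± 0.579 and 10.3 ± 1.0 in oral and intraperitoneal vehicle libraries (SD, n = 4 each). Tie1 came next, at 2.56 ± 0.267 and 3.10 ± 0.808 CPM per kilobase in IL-23 libraries, against 3.53 ± 1.02 and 3.55 ± 0.338 in vehicle libraries by the same order of routes. Tek, Angpt2, Flt4, Kdr, Vegfc, Angpt1 and Flt1 lay between 0.450 and 2.70 CPM per kilobase in every group mean. Prox1 was lowest, at 0.0611 ± 0.0137 and 0.0794 ± 0.0770 CPM per kilobase in IL-23 libraries, against 0.159 ± 0.0570 and 0.269 ± 0.0977 in vehicle libraries. The mean ± SD of Vegfa and Tie1 did not overlap in any group, nor did those of Prox1 and the gene next above it. Tie1 and Tek were apart in this sense in oral IL-23 and intraperitoneal vehicle libraries, as were Kdr and Vegfc, and Angpt1 and Flt1, in intraperitoneal vehicle libraries, and the other neighbours in the order overlapped.

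Over both routes most endothelial markers moved with the vessel receptors. Of 17 pan-endothelial markers, all tested, 12 were lower and 1, Plvap, was higher over both routes, with a median log2 fold change of -0.61, where 38.7% of all genes tested were lower. With oral dosing 13 were lower and none higher (median -0.87). With intraperitoneal dosing 6 of 17 were lower and Plvap higher (median -0.41), a share of lower calls near the 30.9% of all genes. The largest changes over both routes were falls. Cdh5, the endothelial cadherin, fell by 1.09 (SE 0.21), Cldn5, a tight junction protein, by 1.10 (SE 0.14), and Clec14a, an endothelial surface lectin, by 1.08 (SE 0.19). Pecam1, Emcn, Eng and Egfl7 were not called over both routes, and Cdh5 was not called with intraperitoneal dosing. The summed level of the 17 markers was 244 to 342 CPM in oral and 305 to 495 CPM in intraperitoneal IL-23 libraries, against 328 to 612 CPM in oral and 388 to 424 CPM in intraperitoneal vehicle libraries. No marker of the 17 was at 0 in any library. The summed CPM of Kdr, Flt1, Flt4, Tek and Tie1 was 35.4 to 52.1 in oral and 39.0 to 72.2 in intraperitoneal IL-23 libraries, against 50.3 to 102 in oral and 63.4 to 74.9 in intraperitoneal vehicle libraries.

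**Figure D3:**
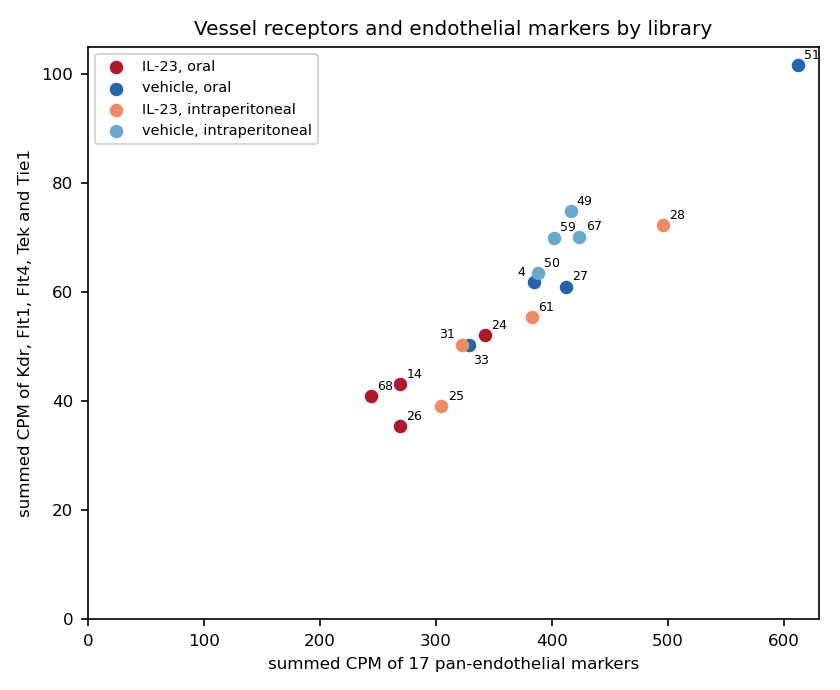
Summed CPM of the 5 receptor genes (vertical axis) against summed CPM of 17 pan-endothelial markers (horizontal axis), 1 point per library with its number, both axes from 0. Library 51 is at the upper right with 102 and 612 CPM, library 28 has 72.2 and 495 CPM, and the oral IL-23 libraries reach at most 52.1 and 342 CPM.

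Each gene was also set against the endothelial markers, with the geometric mean count of the 17 markers in place of library size, a scaling that moves the median of all genes by 0.61 over both routes. On that scale Vegfa was higher with IL-23, by 0.84 (SE 0.23, adjusted p = 0.0014) with oral dosing, by 0.55 (SE 0.23, adjusted p = 0.0423) with intraperitoneal dosing and by 0.70 (SE 0.16, adjusted p = 0.000194) over both. Per 100 counts of the marker mean, Vegfa had 477 ± 93.5 counts in oral IL-23 libraries, against 266 ± 71.7 in oral vehicle libraries, and 372 ± 91.4 in intraperitoneal IL-23 libraries, against 254 ± 37.4 in intraperitoneal vehicle libraries (SD, n = 4 each). Vegfa is made by many cell types besides endothelium. Prox1 was lower, with -0.92 (SE 0.36, adjusted p = 0.0209) over both routes and -1.31 (SE 0.49, adjusted p = 0.0238) with intraperitoneal dosing, while the oral value was -0.54 (SE 0.53, adjusted p = 0.374). The other 8 genes did not pass in either route or over both: Angpt1 had -0.47 (SE 0.23, adjusted p = 0.0654) and Tie1 0.30 (SE 0.16, adjusted p = 0.078) over both routes. Kdr, at -0.10 (95% interval -0.45 to 0.26), and Tek, at 0.01 (-0.36 to 0.38), had intervals on both sides of 0, and Flt1, Flt4, Angpt2, Tek and Tie1 turned sign over both routes on this scale.

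**Figure D4:**
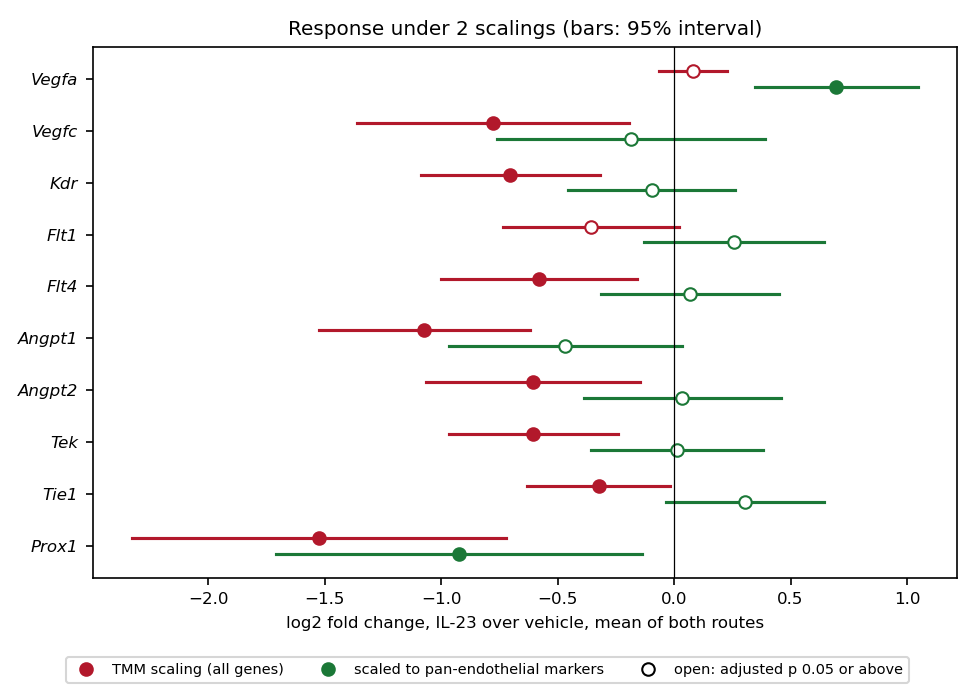
Log2 fold change of IL-23 over vehicle, mean of both routes, with its 95% interval, for each vessel growth gene under TMM scaling (red) and relative to 17 pan-endothelial markers (green), with filled points for adjusted p below 0.05. Vegfa stands at 0.70 relative to the markers and at 0.08 under TMM, and Prox1 is below 0 and called under both.

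The other genes of the VEGF and angiopoietin systems were taken from lists chosen with earlier results of these data known. Of 5 further VEGF ligands and co-receptors, 3 were lower and 1 was higher over both routes, against 38.7% of all genes lower and 34.9% higher. Vegfb, a ligand of Flt1, had 13.7 ± 2.21 CPM in IL-23 and 20.7 ± 1.91 CPM in vehicle libraries (SD, n = 8 each) and fell by 0.60 (SE 0.08, adjusted p = 3.37e-06). Nrp2, a co-receptor of Vegfc and Flt4, had 29.8 ± 12.9 CPM in IL-23 and 55.7 ± 5.17 CPM in vehicle libraries and fell by 0.91 (SE 0.16, adjusted p = 7.09e-05), and Nrp1, a co-receptor of Vegfa, fell by 0.55 (SE 0.22, adjusted p = 0.0294). The Nrp1 call was lost when library 14, 25, 31, 49, 51, 59, 61 or 68 was left out (-0.46, adjusted p = 0.0707, without library 51), and without library 28 the value was -0.85 (SE 0.11, adjusted p = 2.21e-06). Pgf, placental growth factor and a Flt1 ligand, was higher, with 2.11 ± 0.611 CPM in IL-23 and 1.13 ± 0.417 CPM in vehicle libraries. Its log2 fold change was 0.92 (SE 0.24, adjusted p = 0.00256). With intraperitoneal dosing neither Pgf nor Nrp1 was called, and Pgf reached 2.10 CPM in the vehicle libraries of that route. Figf, which encodes VEGF-D, had 0.24 (SE 0.11, adjusted p = 0.0556), and passed without library 25, 28 or 49. Relative to the endothelial markers Pgf (1.55, SE 0.29) and Figf (0.83, SE 0.18) were called higher and none of the 5 lower. On that scale 60.0% of all genes were called higher and 10.9% lower. There the sign of Nrp1 turned, and the median of the 5 was 0.02, against -0.55 under TMM. The median of all genes tested was 0.57 on the endothelial scale.

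Of 6 further genes of the angiopoietin and Tie system, 4 were lower and 1 was higher over both routes. Of all genes tested 38.7% were lower and 34.9% higher. Angpt4, a Tek ligand, had 1.67 ± 0.736 CPM in IL-23 and 5.65 ± 1.23 CPM in vehicle libraries (SD, n = 8 each) and fell by 1.77 (SE 0.24, adjusted p = 4.49e-06). Ptprb, the endothelial phosphatase that acts on Tek, had 14.4 ± 4.84 CPM in IL-23 and 31.9 ± 8.23 CPM in vehicle libraries and fell by 1.18 (SE 0.18, adjusted p = 1.54e-05). The angiopoietin-like genes Angptl1 and Angptl2 fell by 1.84 (SE 0.16) and 1.39 (SE 0.11). Angptl4, a lipase inhibitor induced by fasting and hypoxia, was higher by 0.78 (SE 0.22, adjusted p = 0.00453). It was not called with oral dosing, and without library 28 its value over both routes was 0.53 (SE 0.15, adjusted p = 0.0035). Svep1, a matrix protein of lymphatic growth, had -0.02 (SE 0.26, adjusted p = 0.942), and its sign turned under RLE factors and under the endothelial scaling. Without library 28 Svep1 was lower (-0.37, SE 0.16, adjusted p = 0.0472). Relative to the endothelial markers Angpt4, Ptprb, Angptl1 and Angptl2 were called lower, and Angptl4 (1.36, SE 0.21) and Svep1 (0.55, SE 0.20) higher. On that scale 10.9% of all genes were called lower and 60.0% higher.

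Other vessel lists over both routes were as follows, where 38.7% of all genes tested were lower and 34.9% higher. Of 12 lymphatic genes tested, 6 were lower and 1 was higher (median -0.62), with Mmrn1, a lymphatic matrix protein, at -1.37 (SE 0.27), Reln at -1.35 (SE 0.20) and Pdpn, which keratinocytes also make, at 1.23 (SE 0.17). Of 12 tip cell and sprouting genes, 8 were lower and 2 were higher (median -0.70), with the Notch ligand Dll4 at -1.13 (SE 0.24), the Notch target Hey1 at -1.22 (SE 0.17) and the chemokine receptor Cxcr4 at 1.06 (SE 0.22). Of 11 markers of mural cells, the contractile cells around vessels and a source of Angpt1, 10 were lower and none was higher (median -0.84), among them Rgs5 at -1.80 (SE 0.22), Kcnj8 at -2.12 (SE 0.24) and Abcc9 at -1.74 (SE 0.17). Relative to the endothelial markers, 4 lymphatic, 3 tip cell and 5 mural genes were called lower and 4, 4 and 1 higher. On that scale 10.9% of all genes were called lower and 60.0% higher.

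Genes that act on angiogenesis from outside these systems moved in both directions, and the shares of factors and inhibitors called lower were near the 38.7% of all genes. Of 12 other pro-angiogenic factors, 5 were lower and 1 was higher, with Fgf2 at -2.23 (SE 0.35), Pdgfa at -0.95 (SE 0.10) and the protease Plau at 0.96 (SE 0.09). Of 10 inhibitors, 4 were lower and 1 was higher (median -0.41), with Serpinf1 at -0.83 (SE 0.17), Thbs2 at -0.69 (SE 0.15) and Col18a1, the source of endostatin, at -0.66 (SE 0.08). Of 13 hypoxia response genes, a programme that also induces Vegfa, 7 were higher and 3 were lower (median 0.37). Over both routes 34.9% of all genes were higher and 38.7% lower. The largest changes were those of the glycolytic genes Pgk1 at 1.38 (SE 0.11) and Ldha at 1.11 (SE 0.10) and the hydroxylase Egln3 at 1.25 (SE 0.22). The 3 lower genes were Epas1, Bnip3 and Pdk1, and Car9, Ankrd37 and Ndrg1 were not called. Relative to the endothelial markers the medians were 0.61 for the factors, 0.20 for the inhibitors and 0.98 for the hypoxia genes. The median of all genes tested was 0.57 on that scale, and that of the factors was -0.005 under TMM. On that scale no inhibitor or hypoxia gene was called lower, against 10.9% of all genes lower and 60.0% higher. In lists of 10 and 13 genes such a share of lower calls is few genes, so their absence is not a feature of these lists.

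**Figure D5:**
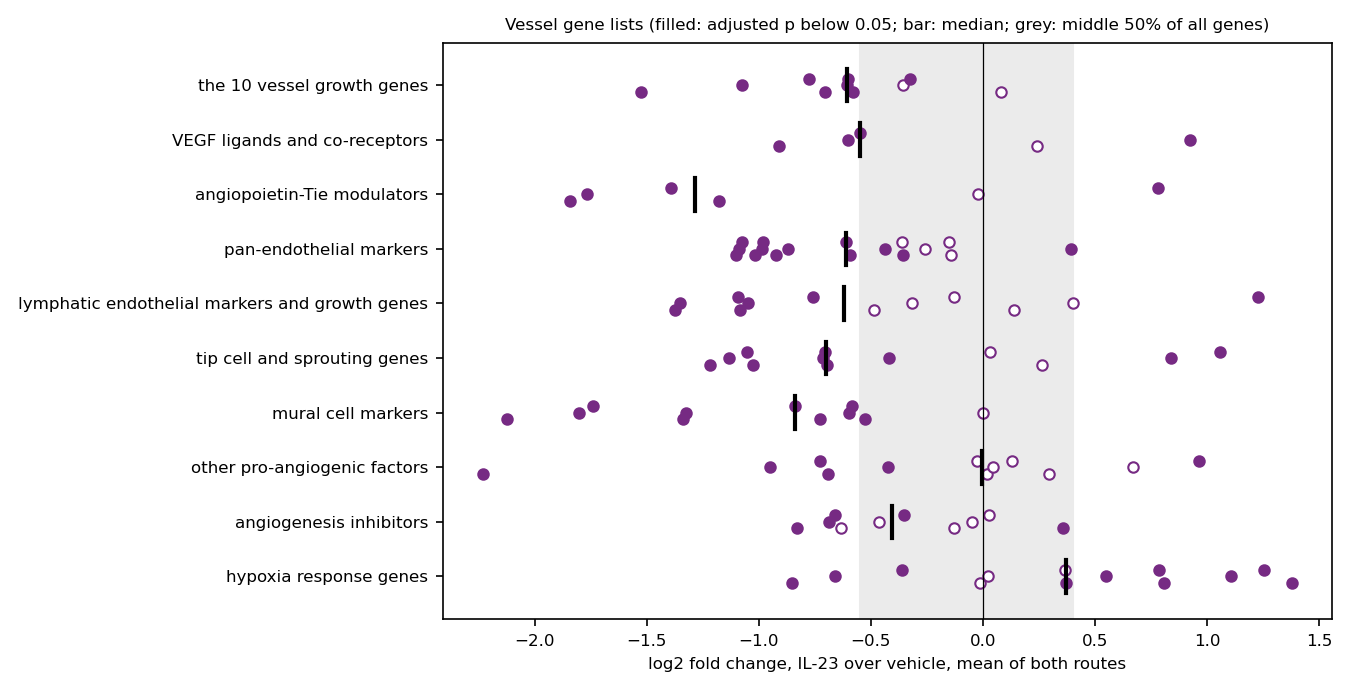
Log2 fold change of IL-23 over vehicle, mean of both routes, for the 10 vessel growth genes and 9 related lists, 1 point per gene, filled where adjusted p was below 0.05, with a bar at each list's median and the middle 50% of all genes tested in grey. The mural list has no called gene above 0, and the hypoxia list has the highest median, 0.37.

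Markers of other cell types moved in both directions, and their part in the results was not tested. Over both routes 38.7% of all genes tested were lower and 34.9% higher. All 11 skeletal muscle markers tested were lower over both routes (median -1.23), with sums of 1546 to 2999 CPM in oral and 1850 to 2074 CPM in intraperitoneal IL-23 libraries, against 4361 to 7507 CPM in oral and 3512 to 4595 CPM in intraperitoneal vehicle libraries. All 8 adipocyte markers were lower (median -1.80), with sums of 202 to 278 and 206 to 292 CPM in IL-23 libraries, against 570 to 698 and 436 to 584 CPM in vehicle libraries. Of 9 keratinocyte markers 8 were higher and 1 lower (median 0.89), with 51786 to 60324 and 40654 to 76284 CPM in IL-23 libraries, against 21450 to 29737 and 23737 to 27608 CPM in vehicle libraries. All 6 neutrophil markers tested were higher (median 4.07), and Ly6g of that list was not tested. Sums were 19868 to 30408 and 21124 to 24908 CPM in IL-23 libraries, against 28.8 to 124 and 45.5 to 94.0 CPM in vehicle libraries. A sum follows the highest genes of a list. The mean log2 CPM of the list was 5.48 to 6.62 and 5.49 to 6.15 with IL-23, against 0.547 to 2.22 and 0.838 to 1.88 with vehicle. Of 8 macrophage and monocyte markers 4 were higher and none lower (median 0.83), and of 7 fibroblast markers 3 were lower and 1 higher (median -0.12). Without library 28 the macrophage median was 0.44 and the fibroblast median -0.52. The fibroblast sign turned without library 51 (0.04) and relative to the endothelial markers (0.47, where the median of all genes tested was 0.57).

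Over the 16 libraries, with each group's mean removed, Pearson's r of log2 CPM was 0.80 for Kdr with Flt1, 0.78 with Flt4, 0.81 with Angpt2, 0.76 with Tek and 0.73 with Tie1. The other pairs of receptor genes ran from 0.47 for Flt4 with Tie1 to 0.76 for Flt1 with Tie1. Vegfa had from -0.47 with Angpt2 to 0.10 with Angpt1, with -0.38 for Kdr and -0.07 for Flt1. These points share libraries and their depth and are described without a test. For Kdr and Angpt1 it was 0.37 without library 28 and 0.60 with it, and for Angpt1 and Prox1 it was -0.44 without that library and 0.05 with it. Among 11910 other genes whose mean over libraries reached 5 CPM, those most like Kdr were Igfbp7 (0.96) and Adgrf5 (0.96), the gene most like Flt4 was Mmrn1 (0.91), that most like Tie1 was Emcn (0.89), and those most like Tek were Rnase4 (0.92), Ackr1 (0.92) and Tll1 (0.90). The gene most like Vegfa was Ncdn (0.89), that most like Angpt1 was Gpr153 (0.91) and that most like Angpt2 was Thbs4 (0.93). For Vegfc it was Alkbh8 (0.91), for Flt1 Ift57 (0.90) and for Prox1 Grk5 (0.87). Each was chosen for its high r among 11910 genes. Spearman's rho of these named pairs ran from 0.66 (Tek with Ackr1) to 0.95 (Kdr with Adgrf5). Without library 28 their Pearson's r ran from 0.78 (Prox1 with Grk5) to 0.96 (Kdr with Adgrf5).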

How the data were processed

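Sequencing was on an Illumina HiSeq after library preparation with a stranded total RNA kit (TruSeq), per the labels' protocols. The submitters' processing notes list FastQC, STAR, featureCounts of Subread 1.5.0 and the mouse build GRCm38. The annotation counted and its strand and multiple-match settings were not given in the sources used here. What the authors deposited are whole-number read counts for each gene, without normalization. Columns were matched to samples by title, and the number that opens each title names the library.

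The tests used edgeR 4.0.16 under R 4.3.3, with TMM factors, filterByExpr on the 4 groups (minimum count 10), and a 2-sided quasi-likelihood test of the 4 group means with 1 shared spread over 16 libraries, Benjamini-Hochberg adjusted over 14671 genes. Contrasts were IL-23 against vehicle with oral dosing, with intraperitoneal dosing and as the mean of both, their difference, and intraperitoneal against oral dosing in vehicle mice. The SE is the log2 fold change over the root of the F statistic, and 95% intervals use 12 residual degrees of freedom. Scripts were tested on simulated counts. The members and lists were chosen with earlier results of these data known. Besides the 10 genes, the text gives values for all genes of the VEGF and angiopoietin lists. From each other list it gives values for up to 3 called genes with the largest change over both routes. It also names, for each of the 10, up to 3 genes of the most similar pattern. Some further endothelial and hypoxia genes are named by their calls alone. Gene positions and upstream windows are from RefSeq, and strands, exon lengths and overlapping genes from the GENCODE annotation, both on GRCm38.p6. Alternatives were RLE factors, plain library sizes, scaling to pan-endothelial markers, no filter, a filter of 1 CPM in 4 libraries, DESeq2 1.42.0, limma-voom (limma 3.58.1), only the groups compared, and leaving out each library. Leaving out libraries 28 and 51 together was added after seeing the data. Floors on counts cover counting error only, whereas the 95% intervals rest on the fit's spread between libraries.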

Additional observations from a re-analysis of the deposited data

Results flagged for a closer look

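Among the 10 genes and the Angpt2 to Angpt1 ratio, 3 of 44 sets of 4 libraries held a value far from the other 3 by Dixon's criterion, which chance gives in about 1 of 20 sets. Vegfa had 40.0 CPM in oral IL-23 library 14, where the other oral IL-23 libraries had 50.3 to 51.3 CPM. Vegfc had 4.15 CPM in intraperitoneal IL-23 library 28, where the others of its group had 1.46 to 1.82 CPM. Tek had 18.6 CPM in oral vehicle library 51, where the others of its group had 10.5 to 11.2 CPM. Library 28 had the highest level of all 8 IL-23 libraries for 8 of the 10 genes.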

How the results depend on the processing

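No paired analysis was possible because no replicate number is shared between groups. Leaving out 1 library at a time gave 3 to 8 of the 10 genes called with oral dosing (3 without vehicle library 51, 4 without IL-23 library 26), 2 to 4 with intraperitoneal dosing (4 without IL-23 library 28 or vehicle library 51) and 7 to 9 over both routes. Without libraries 28 and 51 together 6 were called with intraperitoneal dosing, and with plain library sizes 4. Plain library sizes lowered the median of all genes by 0.20, 0.21 and 0.21 (oral, intraperitoneal, both), and the share of called genes that were higher was then 31.0%, 31.5% and 31.9%, where TMM gave 46.2%, 49.9% and 47.4%, and Vegfa had -0.14, -0.11 and -0.13. RLE factors moved the median by at most 0.04.

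Scaling to the endothelial markers raised that median by 0.78, 0.44 and 0.61, left 1 of the 10 genes called with oral dosing and 2 over both, and turned the sign of Kdr (0.014), Flt1 (0.24), Flt4 (0.25) and Tie1 (0.40) with oral dosing, of Flt1 (0.27), Angpt2 (0.28), Tek (0.11) and Tie1 (0.21) with intraperitoneal dosing, and of Flt1 (0.26), Flt4 (0.068), Angpt2 (0.035), Tek (0.012), Tie1 (0.30), Nrp1 (0.016) and Svep1 (0.55) over both. It called 91.6%, 81.2% and 84.7% of changed genes higher. The difference between routes then called 1 gene, as did DESeq2, and the vehicle route contrast 1 gene. Svep1 had 0.0063 under RLE factors and 0.0035 without a filter.

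Leaving out 1 library, intraperitoneal Flt1 ran from -0.28 to 0.0091, intraperitoneal Angpt2 from -0.38 to 0.039 and Svep1 over both routes from -0.37 to 0.107. The log2 difference of the Angpt2 to Angpt1 ratio ran from -0.11 to 0.50 with oral dosing, negative without IL-23 library 14, and from 0.74 to 0.99 with intraperitoneal dosing. The oral Flt1 call was lost under RLE factors, limma-voom, no filter and only the groups compared, and the oral Prox1 call under limma-voom and no filter (Prox1 was not tested with only the oral groups). The Tie1 call over both routes was lost under RLE factors, DESeq2, limma-voom and no filter. Intraperitoneal Kdr passed under plain library sizes, DESeq2 and limma-voom, and intraperitoneal Flt4 under plain library sizes and only the groups compared. The cause of these changes was not tested. Depth limits Prox1 (0 to 43 counts per library), Vegfc (3 to 55 counts) and, in IL-23 libraries, Angpt1 (9 to 39 counts).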

Other observations

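In the marker lists of other cell types, the called genes with the largest changes over both routes (edgeR) were as follows. Of the neutrophil list, S100a8 and S100a9, which encode the subunits of calprotectin, had log2 fold changes of 8.59 (SE 0.30, adjusted p = 9.91e-13) and 8.46 (SE 0.30, adjusted p = 1.32e-12). The chemokine receptor Cxcr2 of that list had 4.18 (SE 0.29). Which cells these transcripts came from was not tested. The stress keratins Krt16 and Krt6a had 5.42 (SE 0.47) and 3.67 (SE 0.27), and Krt1, a keratin of differentiating epidermis, had 3.45 (SE 0.21). Among macrophage and monocyte markers, Ly6c2, Ccr2 and Mrc1 had 2.27 (SE 0.63), 1.56 (SE 0.29) and 1.52 (SE 0.23), and without library 28, which had 46.4 CPM of Ly6c2, Ly6c2 had 1.06 (SE 0.32, adjusted p = 0.00635). In the other direction, the adipocyte genes Plin1, which coats lipid droplets, and Lep, which encodes leptin, had -2.24 (SE 0.21) and -2.23 (SE 0.22), and the muscle myosins Myh2 and Myh7 had -2.03 (SE 0.12) and -1.79 (SE 0.20). Of the fibroblast list, the collagen genes Col1a2 and Col1a1 had -0.88 (SE 0.25) and -0.62 (SE 0.25), and the matrix gene Fbln1 had 1.08 (SE 0.08). The Col1a1 call was lost when library 14, 24, 25, 31, 49, 51 or 61 was left out (-0.52, adjusted p = 0.0741, without library 51).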
